A study of Oncorhynchus mykiss with 8 samples.

Results

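The oestrogen receptor gene esr1, the follicle-stimulating hormone receptor gene fshr and the gonadotropin-releasing hormone gene gnrh were followed in liver and muscle of rainbow trout. They were found as every probe that the platform annotation names with one of these symbols, which gave 3 genes of 93 with a symbol that is no locus placeholder, and 4 probes of 43603. These are A_05_P249529 and A_05_P406492 for esr1, A_05_P249804 for fshr and A_05_P249439 for gnrh, and each had a value on all 8 arrays. All fish were of the Lyndon strain, fed ad libitum, and offspring of neomales, which are genetic females made to develop as functional males. Their offspring with ordinary females are expected to be all female. On each array a pool of large fish was hybridised against a pool of small fish of the same tissue, each pool holding mRNA of 5 fish. Age, sexual maturity and the size limits of both classes are not given in the labels. The titles were read as 2 pool pairs per tissue, each hybridised on 2 arrays with the dyes Alexa Fluor 555 and Alexa Fluor 647 exchanged. The labels do not say that the pools of one number are the same fish in liver and muscle.

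The 3 genes belong to the axis that runs from brain to pituitary to gonad. Gonadotropin-releasing hormone is a brain peptide that makes the pituitary release gonadotropins, among them follicle-stimulating hormone. Its receptor, fshr, is best known from the follicle and Sertoli cells of the gonad, where signalling through it raises oestrogen synthesis. Oestrogen then reaches the liver, where the nuclear receptor encoded by esr1 switches on the egg yolk precursor vitellogenin and egg envelope proteins in maturing females, and the esr1 gene is itself induced by oestrogen in fish liver. The liver is therefore a target organ of the axis, whereas neither liver nor muscle is its usual site of gnrh or fshr transcription.

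The deposited values are log2 ratios of both channels, and the direction is not settled: the numerator is not stated, nor whether ratios of exchanged dyes were inverted before deposit. Arrays on which large fish carried Alexa Fluor 555 are called 555 arrays below, and those on which large fish carried Alexa Fluor 647 are called 647 arrays. All values are given in 2 readings. In the turned reading the sign of the 647 arrays was changed before the 2 arrays of a pool pair were averaged. In the unturned reading every sign was kept. Positive refers to the sign of the 555 arrays as deposited, and which size class had more transcript is not stated for any value. A ratio gives no level, so whether a transcript was abundant or near the detection limit in either tissue, and how esr1, fshr and gnrh rank against each other, is not measured here. For the same reason the tissues could not be checked by the level of their markers. Across all probes the SD of an array was 0.55 to 0.92 in liver and 0.32 to 0.33 in muscle, with array medians between -0.08 and 0.11.

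No probe of the 3 genes passed a Benjamini-Hochberg adjusted p of 0.05 in limma in either tissue or either reading. The same fit called 0 of 36053 probes in liver (0%) and 0 of 41652 in muscle (0%). An unadjusted p under 0.05 was found in the turned reading for 2 of the 4 probes in liver, against 20.4% of all liver probes, and for 1 of 4 in muscle, against 4.53%. Unturned, these were 1 of 4 against 9.97% in liver and 0 of 4 against 1.63% in muscle. An exact sign-flip test over 2 pool pairs cannot give a two-sided p below 0.5, so such a test of 1 probe could not reach the threshold. The values below are therefore measurements with their spread. In whole tissue, fewer cells of a type and less RNA per cell cannot be told apart.

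**Figure D1:**
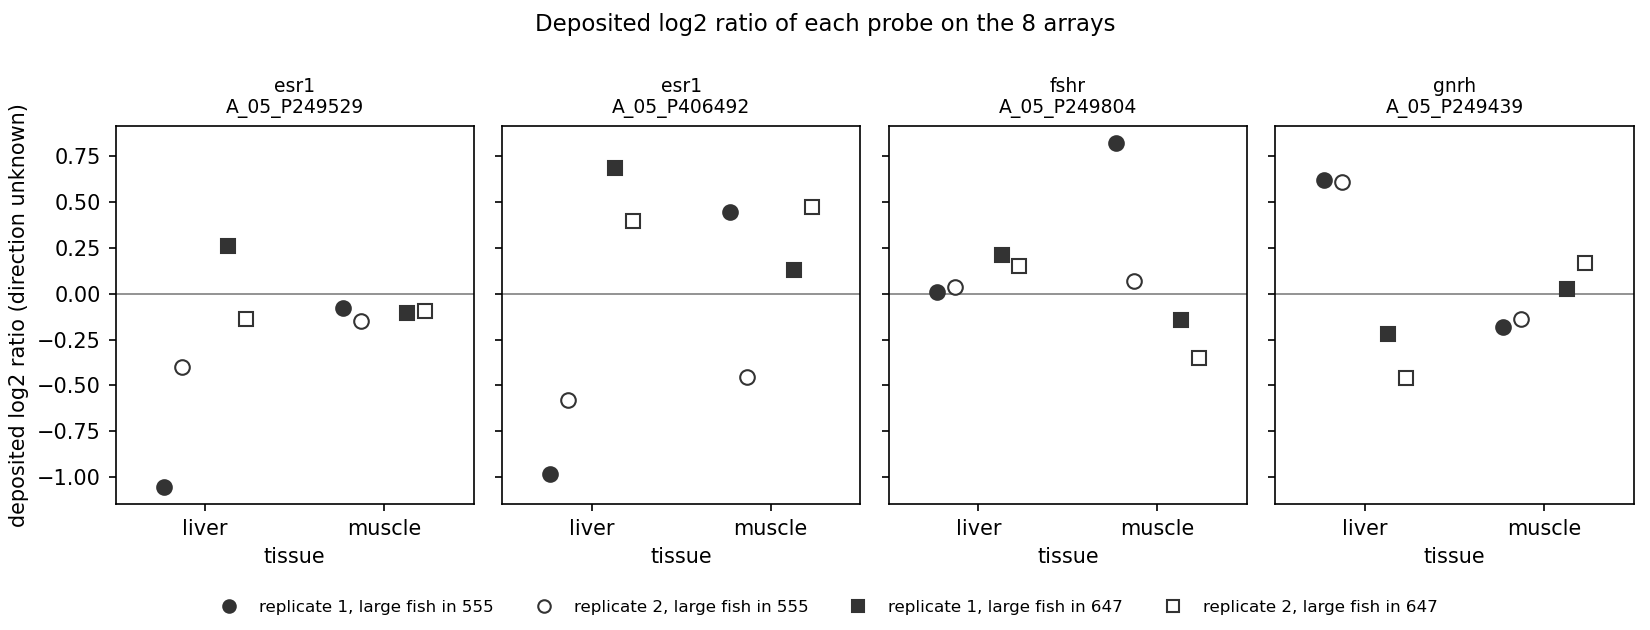
Deposited log2 ratio (vertical axis) of each probe in liver and muscle (horizontal axis), with circles for 555 arrays, squares for 647 arrays, filled symbols for replicate 1 and open symbols for replicate 2. In liver, gnrh lies at 0.62 and 0.61 on the circles and at -0.22 and -0.46 on the squares, and the esr1 probe A_05_P406492 at -0.99 and -0.58 on the circles and 0.69 and 0.40 on the squares.

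The gnrh probe, named for the ligand at the top of the axis, had the lowest unadjusted limma p of the 4 probes in liver in the turned reading. This held in the fit of both tissues together. With liver fitted alone the esr1 probe A_05_P406492 had the lowest unadjusted limma p, 0.0278 against 0.0441 for gnrh. Trout carry several gonadotropin-releasing hormone genes, and which of them the gnrh probe measures is not stated. As deposited, its liver values were 0.62 and 0.61 in replicates 1 and 2 on the 555 arrays, and -0.22 and -0.46 on the 647 arrays. The sign thus followed the dye orientation on all 4 liver arrays, and the 555 arrays deviated more. In absolute size the first pair of values exceeded 82.4% and 84.6% of the probes on their arrays, and the second pair 39.3% and 62.9%.

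Turned, gnrh had pool pair values of 0.42 and 0.53 in liver. Their mean was 0.48 ± 0.08 (SD over 2 pool pairs, as for all means below), a 1.39-fold ratio. The limma 95% interval of this mean was 0.22 to 0.73, with an unadjusted p of 0.00620 and an adjusted p of 0.174. This fit takes its spread from liver and muscle together. With liver fitted alone the unadjusted limma p was 0.0441 and the adjusted p 0.600. The size of the gnrh mean exceeded that of 82.6% of the liver probes tested. Unturned, the pair values were 0.20 and 0.075 and the mean 0.14 ± 0.09, a 1.10-fold ratio with an adjusted limma p of 0.624. The liver deviation of gnrh was thus far larger in the turned reading, with the same sign in both. Both readings share the 555 values, which deviated more than the 647 values in each liver pair, so this sign could not differ. With liver replicate 1 left out, the remaining turned value of 0.53 had an adjusted limma p of 0.0328, in a fit that borrows its spread from muscle and that passed 7159 of 37428 probes. Without liver replicate 2 the value of 0.42 had an adjusted limma p of 0.0615.

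Control spots used as blanks showed the same sign pattern as gnrh in liver, and so did the median over all probes. The medians were 0.11 and 0.08 on the 555 arrays and -0.08 and -0.05 on the 647 arrays. With the arrays centred on their medians the turned gnrh mean in liver was 0.40. The same centring made the turned liver means of the other probes larger in size. They were -0.47 at A_05_P249529 and -0.74 at A_05_P406492, both of esr1, and -0.16 for fshr. The DarkCorner spots had 0.76 and 0.71 on the 555 arrays and -1.26 and -0.12 on the 647 arrays, and the negative control (-)3xSLv1 had no value and 0.92, against -1.66 and -2.81. The part of background signal in the gnrh values was not tested, since no intensities were used here.

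In muscle the gnrh values lay on the other side in the turned reading. They were -0.18 and -0.14 on the 555 arrays and 0.03 and 0.17 on the 647 arrays as deposited, again with the sign following the dye orientation on all 4 arrays. The turned pair values were -0.11 and -0.15, with a mean of -0.13 ± 0.03, a 1.09-fold ratio whose limma 95% interval ran from -0.38 to 0.13. The unturned mean was -0.03 ± 0.06. The adjusted limma p was 1 in both readings. The DarkCorner spots of muscle, with 0.32 and 0.52 on the 555 arrays and -0.48 and 0.58 on the 647 arrays, did not follow the gnrh pattern. Nor did the negative control (-)3xSLv1, with -0.04 and 0.22 on the 555 arrays and -0.04 and -0.07 on the 647 arrays. The medians of the muscle arrays were 0.0129 and 0.0115 on the 555 arrays and -0.0072 and 0 on the 647 arrays.

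The fshr probe, for the receptor through which follicle-stimulating hormone acts on the gonad, deviated little in liver. Its deposited liver values were 0.0086 and 0.038 on the 555 arrays and 0.21 and 0.15 on the 647 arrays. The 4 values thus had one sign as deposited, and the values on the 647 arrays were larger. Turned, the pair values were -0.10 and -0.06 and the mean -0.08 ± 0.03, whereas unturned they were 0.11 and 0.10 with a mean of 0.10 ± 0.01. The sign of fshr in liver therefore rested on the reading. Both limma 95% intervals included 0, from -0.38 to 0.22 turned and from -0.30 to 0.51 unturned.

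In muscle fshr had a deposited value of 0.82 in replicate 1 and 0.07 in replicate 2 on the 555 arrays, and values of -0.14 and -0.35 on the 647 arrays. The value of 0.82 was the largest deviation of fshr on any array and exceeded 97.3% of the probes on its array in size, while that of 0.07 exceeded 26.3%. The 555 arrays of both replicates thus agreed in sign but not in size.

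Turned, fshr had pair values of 0.48 and 0.21 in muscle, with a mean of 0.35 ± 0.19, a 1.27-fold ratio larger than that of 93.6% of the muscle probes. The limma 95% interval was 0.04 to 0.65, the unadjusted p 0.0337 and the adjusted p 1. With muscle fitted alone the unadjusted limma p was 0.0166 and the adjusted p 0.280. Unturned, the pair values were 0.34 and -0.14, of opposite sign, and the mean was 0.10 ± 0.34. A muscle deviation of fshr beyond the spread of the pool pairs therefore appeared in the turned reading alone, and did not pass over all probes there.

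The oestrogen receptor gene esr1 was measured by 2 probes, both annotated with the same transcript. In liver, the target organ of oestrogen, the probe A_05_P249529 had -1.05 and -0.40 as deposited on the 555 arrays and 0.26 and -0.14 on the 647 arrays. The probe A_05_P406492 had -0.99 and -0.58 on the 555 arrays and 0.69 and 0.40 on the 647 arrays. Both probes were thus negative on the 555 arrays, with replicate 1 lower than replicate 2. On the 647 arrays they differed: A_05_P406492 was positive in both replicates, and A_05_P249529 was positive in replicate 1 only.

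The turned pair values of A_05_P406492 in liver were -0.84 and -0.49, with a mean of -0.66 ± 0.25, a 1.58-fold ratio that exceeded 90.3% of the liver probes in size. Its limma 95% interval was -1.19 to -0.13, with an unadjusted p of 0.0249 and an adjusted p of 0.208. Those of A_05_P249529 were -0.66 and -0.13, with a mean of -0.39 ± 0.37 and an interval of -0.82 to 0.03, and the adjusted limma p was 0.260. With liver fitted alone the unadjusted limma p was 0.0278 at A_05_P406492 and 0.145 at A_05_P249529, both with an adjusted p of 0.600. The pool pairs of A_05_P249529 lay further from each other than their mean lay from 0. Each array of replicate 2 lay above the replicate 1 array of the same dye orientation. The turned values were -0.40 and 0.14 in replicate 2, against -1.05 and -0.26 in replicate 1. Across dye orientations the replicates overlapped, since -0.40 lies below -0.26. Without liver replicate 2 the value of -0.66 of this probe had an adjusted limma p of 0.0168, in a fit that passed 7638 of 37569 probes, and without liver replicate 1 the value of -0.13 had 0.484.

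In the unturned reading the order of the esr1 probes in liver was the other way. A_05_P249529 had pair values of -0.40 and -0.27 and a mean of -0.33 ± 0.09, with a limma 95% interval of -0.60 to -0.07, an unadjusted p of 0.0249 and an adjusted p of 0.460. A_05_P406492 had -0.15 and -0.09, with a mean of -0.12 ± 0.04 and an interval of -0.43 to 0.19. Liver esr1 was thus negative at both probes and in both pool pairs in either reading. Both readings share the 555 values, which were larger in size than the 647 values in each pair, so this sign could not differ. Unturned, A_05_P406492 had 2 positive and 2 negative liver arrays. Which probe deviated more, and whether by a 1.58-fold or a 1.09-fold ratio at A_05_P406492, rested on the reading. On the 555 arrays alone, whose 2 values run the same way in either reading, the means were -0.73 for A_05_P249529 and -0.78 for A_05_P406492. With the 647 arrays alone they were -0.06 and -0.54 once turned.

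In muscle the esr1 probes gave different values. A_05_P249529 had -0.08 and -0.15 on the 555 arrays and -0.10 and -0.10 on the 647 arrays, so that all 4 deposited values lay close together below 0. A_05_P406492 had 0.44 and -0.45 on the 555 arrays and 0.13 and 0.47 on the 647 arrays, so that replicates 1 and 2 had opposite signs in the 555 orientation. The turned means were -0.0060 ± 0.028 for A_05_P249529 and -0.15 ± 0.44 for A_05_P406492, and unturned they were -0.11 ± 0.02 and 0.15 ± 0.20. The adjusted limma p was 1 for each of these 4 muscle means, and A_05_P406492 had intervals of -0.68 to 0.38 turned and -0.16 to 0.46 unturned. Transcripts that the liver makes for plasma were also measured in muscle with 6 probes of the liver marker list. Unturned, they had 0.18 to 0.79 in replicate 1 and -1.44 to -0.64 in replicate 2, and thus opposite signs, whereas turned they had -0.42 to -0.13 and -0.50 to -0.03, negative in both. Their part in the esr1 values of muscle was not tested.

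The difference between the esr1 probes, A_05_P406492 minus A_05_P249529, was 0.07, 0.43, -0.18 and 0.53 on the liver arrays and 0.52, 0.24, -0.31 and 0.57 on the muscle arrays, in the order of the 555 and the 647 array of replicate 1 and then those of replicate 2. It was largest on the 647 arrays of replicate 2 in both tissues. The mean absolute difference over the 8 arrays was 0.36. Among 30 probe pairs that shared a symbol, from 17 symbols, this mean absolute difference ranged from 0.25 to 1.14 with a median of 0.48. These 30 pairs include the esr1 pair, and some symbols gave several pairs. Of them, 8 pairs were closer than the esr1 probes. Seen from A_05_P249529, 25 of the 97 other named probes with 8 values lay closer than the second esr1 probe. Seen from A_05_P406492, 13 of 97 lay closer than the first.

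**Figure D2:**
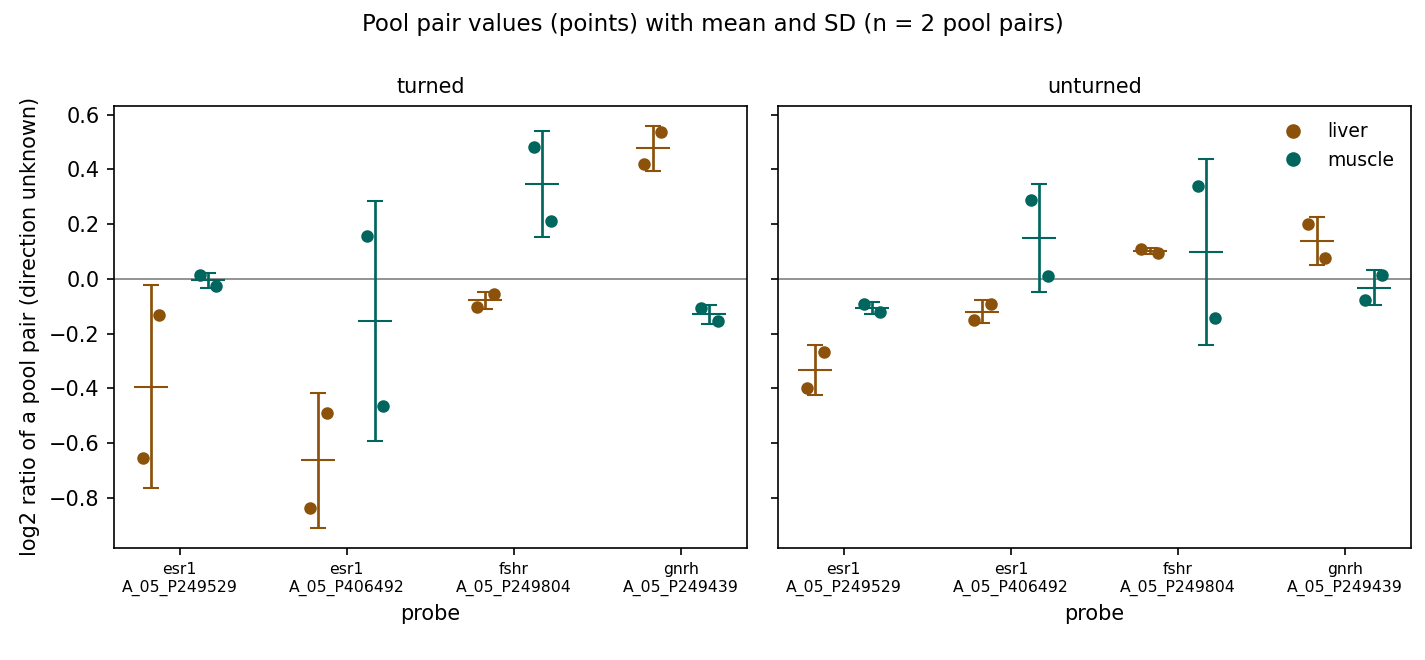
Log2 ratio of each pool pair (points, vertical axis) with mean and SD (dash and bars, n = 2 pool pairs) for the 4 probes in liver (brown) and muscle (green), turned (left) and unturned (right). In liver both esr1 probes are below 0 and gnrh is above 0 in both panels, with means of -0.66 for A_05_P406492 and 0.48 for gnrh on the left and -0.12 and 0.14 on the right.

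Liver and muscle were then compared with each other. In limma 0 of 34757 probes passed this comparison (0%) in either reading. The liver minus muscle difference of gnrh was 0.61 turned, with a 95% interval of 0.24 to 0.97, an unadjusted p of 0.00916 and an adjusted p of 0.546. It was the only 1 of the 4 probes with an unadjusted p under 0.05, against 8.97% of all probes. Unturned, 0 of 4 had such a p, against 4.94%, and the gnrh difference was 0.17, with an interval of -0.21 to 0.55. All 4 liver arrays of gnrh were positive and all 4 muscle arrays negative once turned, a pattern that 0.745% of the probes shared, and as deposited this did not hold. The pattern was taken from gnrh itself and counted in this direction and the turned reading alone. The mirror pattern was not counted, so the share does not measure how rare such a result is. Without liver replicate 1 the turned gnrh difference of 0.66 had an adjusted limma p of 0.0428, in a fit that passed 4533 of 37428 probes. Without liver replicate 2 the difference was 0.55 and the adjusted limma p 0.0743.

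The turned fshr difference was -0.42, with an interval of -0.85 to 0.0039 and an adjusted limma p of 0.556. The unturned fshr difference was 0.0038, with an interval of -0.57 to 0.57. For esr1 the turned differences were -0.39 (interval -0.99 to 0.21) at A_05_P249529 and -0.51 (interval -1.26 to 0.24) at A_05_P406492. The unturned differences were -0.23 (interval -0.60 to 0.15) and -0.27 (interval -0.71 to 0.17). The esr1 ratio was thus more negative in liver than in muscle at both probes and in both readings, within intervals that included 0. On the 555 arrays alone the differences were -0.61 at A_05_P249529 and -0.78 at A_05_P406492. They were -0.16 and -0.24 on the turned 647 arrays alone. Both readings share the larger 555 differences, so this sign could not differ between them. Without liver replicate 2 the difference of -0.65 at A_05_P249529 had an adjusted limma p of 0.0482, in a fit that passed 4117 of 37569 probes. Without liver replicate 1 it was -0.12, with an adjusted limma p of 0.619.

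The 4 probes did not share a sign. In liver 1 of the 4 turned means was positive, with a median of -0.24, against 0.04 over all probes tested. In muscle 1 of 4 was positive, with a median of -0.07 against 0.01. Unturned, 2 of 4 were positive in each tissue, with medians of -0.0086 in liver and 0.034 in muscle, against 0.028 and 0.0026 over all probes. A single sign on all 4 arrays of a tissue was found, once turned, for 2 of 4 probes in liver (A_05_P406492 and gnrh), against 26.2% of all probes, and for 2 of 4 in muscle (fshr and gnrh), against 17.2%. In the unturned reading fshr was the only 1 of 4 in liver, against 9.61%, and the esr1 probe A_05_P249529 the only 1 of 4 in muscle, against 10.6%.

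**Figure D3:**
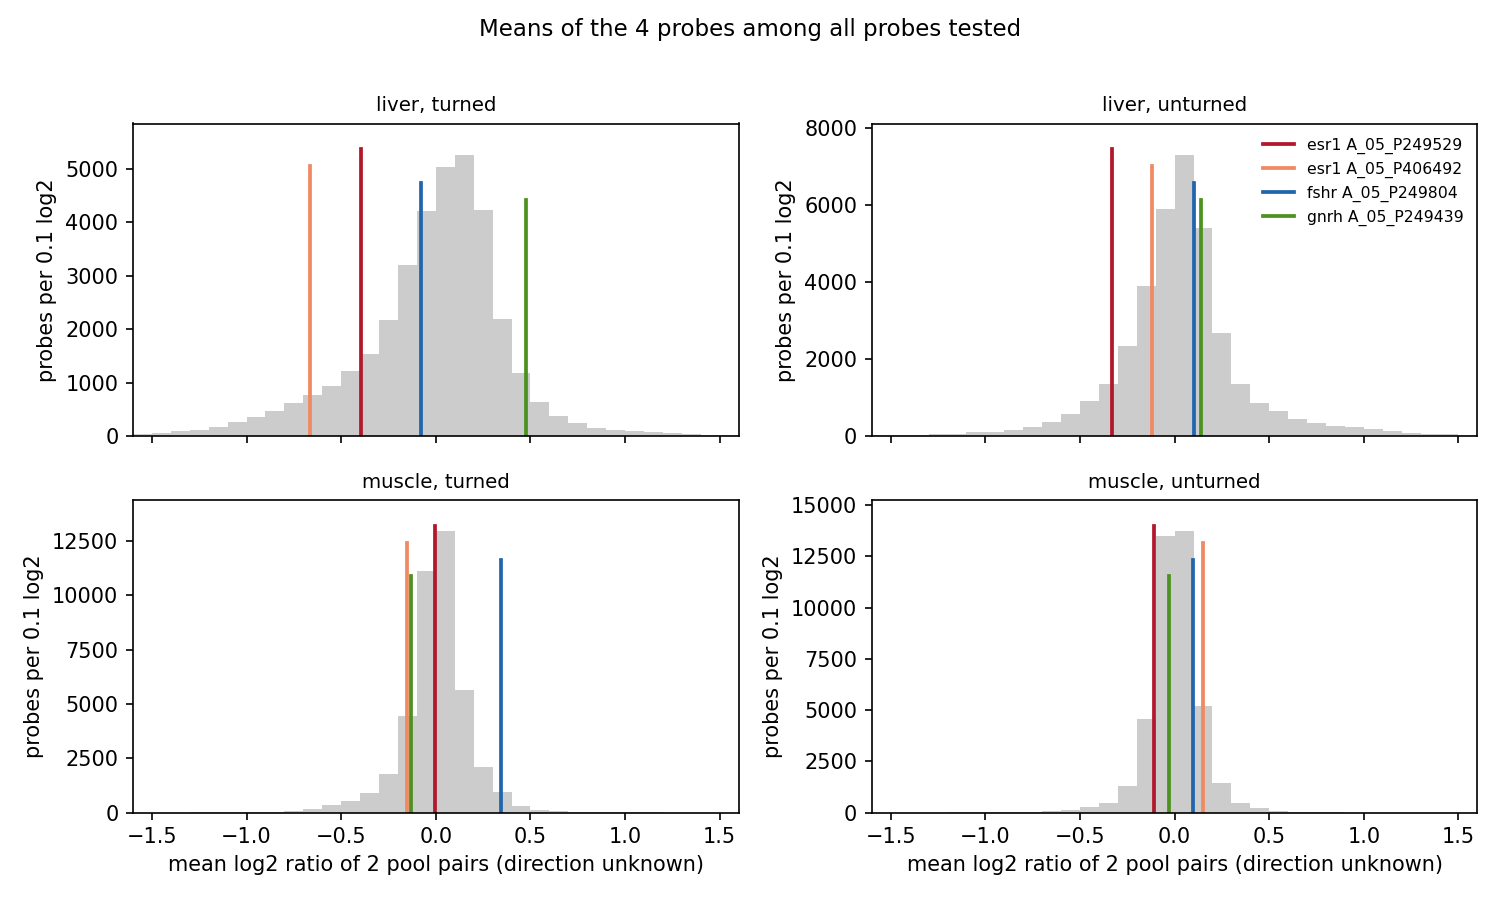
Number of probes per 0.1 log2 (vertical axis, grey bars) by their mean log2 ratio over 2 pool pairs (horizontal axis) in liver (top) and muscle (bottom), turned (left) and unturned (right), with a coloured line at the mean of each of the 4 probes. The turned liver means of A_05_P406492 (-0.66) and gnrh (0.48) and the turned muscle mean of fshr (0.35) lie in the flanks of the distributions, beyond 90.3%, 82.6% and 93.6% of the probes in size.

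Other genes of the axis were looked for by symbol. Of 57 symbols of the hypothalamus, pituitary and gonad, 1 was annotated, lhr, the receptor of luteinising hormone. Of 20 symbols for oestrogen-responsive liver products 0 were annotated. Since 43382 of 43603 probes carry no symbol, this does not show that the array lacks probes for these genes. The lhr probe had 1.03 and 0.31 on the 555 arrays of liver and no value on either 647 array, so neither reading could be formed in liver. On the 555 arrays lhr was thus positive, like gnrh. In muscle its turned mean was 0.03 ± 0.17 and its unturned mean -0.08 ± 0.16, with an adjusted limma p of 1 in both. Of 9 marker symbols of the gonad 0 were annotated, so carry-over of gonad tissue could not be examined.

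The named genes whose 8 deposited values lay nearest to each member were found by the mean absolute difference, which the turning of signs does not alter, among 97 named probes with 8 values. The nearest to gnrh was tyrp-1b, of melanin synthesis, with a mean absolute difference of 0.13. It was followed by irf-1, an interferon regulatory factor, with 0.18, and by a probe of fxyd12a, a small regulator of the sodium pump, with 0.22. Like gnrh, tyrp-1b and irf-1 were positive on all 4 liver arrays and negative on all 4 muscle arrays once turned, with liver means of 0.37 and 0.28 and muscle means of -0.12 and -0.07. Both were picked for lying near gnrh on these same arrays, so the shared signs follow largely from the choice. The same holds for the nearest genes of the other probes below. The median named probe lay 0.49 from gnrh.

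Nearest to the esr1 probe A_05_P249529 were gdh3.1, of the glutamate dehydrogenase family, with 0.12, a probe of the chaperone hsp90b with 0.14, and the antiviral gene mx2 with 0.18, against a median of 0.42. Their turned liver means were -0.30, -0.42 and -0.42. To A_05_P406492 the nearest were st2, with a distance of 0.26, the superoxide dismutase sod1 with 0.29 and the lipid sensor pparb2a with 0.31, against a median of 0.57. The 2 esr1 probes thus had no nearest gene in common. For fshr the nearest were the other fxyd12a probe with 0.21, irf-2 with 0.23 and the kinase p38a with 0.23, against a median of 0.43. Of all 34756 other probes with 8 values, 848 lay closer to fshr than its nearest named gene, 25 to A_05_P249529, 166 to A_05_P406492 and 94 to gnrh.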

How the data were processed

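The authors deposited log2 ratios of the 2 channels, made before deposit in a way no header or label describes, 1 for each array and row of 43663 rows. The unit was found from the values. As powers of 2, 98.4% of the values between 0.05 and 2 in size gave a ratio with 3 decimals (tolerance 0.05 thousandths), against 9.48% as natural and 8.63% as base-10 powers. With every sign turned, 9.52% did so as powers of 2. The ratios as deposited, and not their inverses, thus carried 3 decimals. Whether ratios were inverted before this rounding is not shown by it. Scanner software, background correction, normalization and the reason for empty cells are not given in the sources used here. Scale and centring are those of the deposited values, and the direction is unknown. Per the labels' protocols, mRNA was isolated from Trizol-extracted total RNA and cDNA was labelled directly.

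After 60 control spots were left out, 43603 probes remained, of which 221 carried 1 symbol of an old platform annotation, 0 several and 43382 none. The symbols were kept, because 0 member accessions were in the RefSeq table (assembly USDA_OmykA_1.1), and no position is given. The species from which each probe was designed is not given in the sources used here.

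As the titles were read, the 2 arrays of a pool pair hold the same RNA, and they were averaged. The turned reading is the fit fixed in the design. R 4.3.3 and limma 3.58.1 fitted the 4 pair values (tissue as group, empirical Bayes, 2 residual and 2.21 prior degrees of freedom), after a test on simulated data. Means were tested against 0, two-sided, for probes with a value on all 4 arrays of the tissue, with Benjamini-Hochberg adjustment over all probes tested. The series' design text counts 4 replicates per size without dividing them by tissue, so 2 pool pairs per tissue is a reading of the titles. Nothing says more of how pools were drawn, and p-values measure only the spread between these pools, taken over both tissues together. Liver arrays had the larger SD, so this shared spread can make liver intervals too narrow and muscle intervals too wide. Intervals are unadjusted 95% intervals of this fit. The small number of pools limits the precision.

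Named were all member probes, the 3 named probes nearest to each and the genes of 2 lists of the reproductive axis. The members and lists were chosen with earlier results of these data known.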

Additional observations from a re-analysis of the deposited data

Results flagged for a closer look

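One result was marked for a closer look. The turned gnrh ratio was positive on all 4 liver arrays and negative on all 4 muscle arrays, with a liver minus muscle difference of 0.61. The difference itself was tested in limma and did not pass, with an adjusted p of 0.546. Groups of the same tissue and dye orientation hold 2 arrays each, which is too few to test single arrays as outliers.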

How the results depend on the processing

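Each of the 12 member results (4 probes in liver, in muscle and in their difference) was recomputed under 11 alternatives, 132 values in all, of which 121 kept their sign and their side of the threshold. Many of these values could not change sign. Allowing an empty array in a pair, fitting a tissue alone or leaving out a pair of the other tissue kept each member mean as it was. The latter fits of a tissue were also identical to each other. The count of 121 is therefore no measure of robustness. Signs changed 7 times. Unturned, fshr had 0.10 in liver and 0.0038 for liver minus muscle, and A_05_P406492 of esr1 had 0.15 in muscle. With the 555 arrays alone fshr had 0.024 in liver, and with the 647 arrays alone A_05_P249529 had 0.10 in muscle. Over the pool pairs left out in turn the esr1 probes ranged from -0.026 to 0.014 (A_05_P249529) and from -0.46 to 0.16 (A_05_P406492) in muscle, with both positive values without muscle replicate 2. A further 4 values passed the threshold, all without 1 liver pool pair, as the text gives. In such a fit the lone liver pair is assumed to vary like muscle, which had the narrower spread. The counts of probes passing moved in these fits as well, from 0 to 7638 in liver, 0 to 3 in muscle and 0 to 4533 for liver minus muscle over the 4 pool pairs left out in turn. With muscle fitted alone 3 muscle probes passed, and 1 passed with the arrays scaled to one spread, none of them a member. In liver 0 passed under each alternative that kept both liver pairs, while 2646 to 8820 had an unadjusted limma p under 0.05. With the replicate number as a block 0 probes passed the liver minus muscle comparison, and each member had an adjusted limma p of 0.709. The labels do not pair liver and muscle pools, and 2 numbers are too few to check it from the data. Without intensities, dim spots could not be filtered.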

Other observations

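Probes with an empty cell on another liver array leaned the way gnrh and the blank spots did, an observation made after seeing the data. On the 555 arrays of liver their median was 0.16 in replicate 1 and 0.22 in replicate 2, against 0.10 and 0.06 for probes with 4 liver values. On the 647 arrays it was -0.21 and -0.33, against -0.07 and -0.03. Of these probes 64.7% and 68.6% were positive on the 555 arrays, against 60.1% and 56.8% of the complete ones, and 33.7% and 30.9% on the 647 arrays, against 43.1% and 47.2%. The gnrh probe itself had a value on every array. The lhr probe, with 2 empty liver cells, was positive on both 555 arrays.

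Across probes, which are not independent replicates and share arrays and dyes, liver arrays of the same dye orientation correlated with r = 0.33 (555) and 0.06 (647), and muscle arrays with 0.17 and 0.05. The 2 arrays of 1 pool pair correlated with r = -0.21 and -0.04 in liver and with -0.08 and 0.08 in muscle. The averaged values of the 2 pool pairs correlated, once turned, with r = 0.21 in liver and 0.32 in muscle. Unturned, they correlated with r = 0.08 and -0.095. Which reading holds was not tested.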
